A study of Mus musculus with 24 samples.

Results

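The response to IL-1β was examined in clone A2 of Lkb1-/-/Crtc2-/- MEFs, mouse embryonic fibroblasts immortalized as a 3T3 line. Its members are the 6 RNA-seq libraries, of 24 in the series, whose labels name the double knockout clone A2. Of these, 3 were untreated (ctrl) and 3 were stimulated with IL-1β at 0.1 ng/mL for 6 hours. The other 18 libraries are wild-type MEFs, Lkb1-/- MEFs and the sister clone A1 under the same treatments, with 3 libraries in each of the 8 groups, and they enter here as the shared estimate of the spread and for comparison. The study used them to ask whether the inflammatory hyper-responsiveness of cells without LKB1 needs the coactivator CRTC2. Both arms of the clone A2 comparison carry the loss of LKB1 and the CRISPR targeting of Crtc2, so a difference between them is a response to IL-1β in that background and says nothing by itself about either gene. Clone A2 is a single clone, so a feature of the clone cannot be told apart from an effect of Crtc2 loss. No source used here states that the 3 libraries of a group came from separate cultures, and the p-values then measure only the spread between these libraries. In bulk RNA, fewer cells with a transcript and less transcript per cell cannot be told apart.

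IL-1β binds the receptor IL1R1 with its partner IL1RAP, and the adaptor MYD88 and the kinases of the IRAK family carry the signal to NF-κB and to the MAP kinases that activate AP-1. NF-κB induces chemokines and cytokines together with its own inhibitors, such as IκBα, A20 and IκBζ, and fibroblasts are known for a strong secretory response of this kind. CRTC2 is a coactivator of CREB that salt-inducible kinases, which LKB1 activates, hold in the cytoplasm.

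The 6 libraries held between 40212059 and 45930771 counts of read pairs on genes, and levels below are CPM, counts scaled to library size, after TMM scaling. The libraries fell into pairs by replicate number as well as by treatment. Deviations from the group means correlated between the ctrl and the IL-1β library of the same number at 0.589, 0.222 and 0.439 for replicates 1, 2 and 3, and every library correlated best with its own number. The labels do not say what a replicate number marks. Both libraries of replicate 1 stood apart from the other 4. In them, 34.0% and 33.9% of the pairs fell on no gene, against 26.7% to 28.8% in the rest, and their TMM factors were 1.09 and 1.08, against 1.00 to 1.03. The first principal component, with 39.0% of the variance, separated replicate 1 from the others, and the second, with 32.2%, separated the treatments. Fits are therefore given without a replicate block, as in the study's design, and again with a term for each replicate pair of a genotype (called the block below) where this changes a call or a count.

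**Figure D1:**
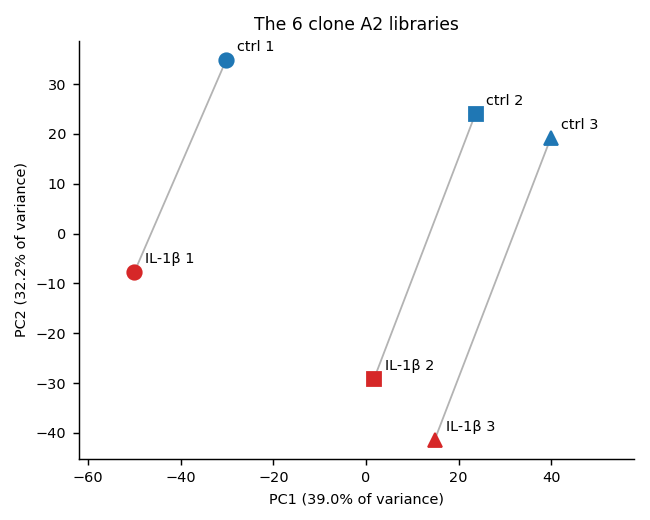
First and second principal components of log2 CPM for the 6 clone A2 libraries, blue for ctrl and red for IL-1β, with gray lines joining libraries of the same replicate number. All ctrl libraries lie above all IL-1β libraries on the second component (32.2% of the variance), and both replicate 1 libraries lie at the low end of the first (39.0%).

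The targeted genes were still transcribed. Stk11, which encodes LKB1 and lies at chr10:80115803-80130682 (GRCm38, plus strand), was at 18.9, 17.4 and 17.9 CPM in the ctrl libraries and at 23.2, 19.9 and 18.9 CPM after IL-1β. Crtc2 (chr3:90254163-90264125, plus strand) was at 50.6, 48.9 and 50.0 CPM and at 56.4, 50.1 and 52.4 CPM. Neither passed the test of the IL-1β response (FDR 0.11 and 0.56), and with the block Stk11 was called slightly higher after IL-1β (FDR 0.0044). A gene-level count does not show a small lesion or whether a protein is made, so these values do not check the genotype. The study targeted Crtc2 by CRISPR in a Lkb1-/- line described earlier, and showed CRTC2 protein by immunoblot. Fibroblast genes defined the cells, with Col1a1 at 1486 to 2658 CPM and Vim at 2547 to 2914 CPM in ctrl. Of 11 macrophage and leukocyte markers 5 were counted often enough to be tested, and Ptprc, Adgre1, Itgam and Tyrobp were not. Of 9 epithelial and 7 endothelial markers 2 each were tested, and Thy1 was the only fibroblast marker of 10 that was removed by the filter on low counts. One of the leukocyte markers, Cd14, a pattern recognition coreceptor that fibroblasts also express, rose by 0.49 on the log2 scale. Lyz2, the lysozyme of macrophages, had 9 read pairs in ctrl and 0 after IL-1β and was called lower with the block alone (FDR 0.071 without it).

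Of 17522 genes tested, 995 (5.68%) were called at an FDR under 0.05 in the IL-1β response of clone A2. Of these, 493 were higher (2.81%) and 502 lower (2.86%) after IL-1β, and the log2 fold change was above 1 in 209 and below -1 in 104. The median log2 fold change of all genes was -0.02. In 467 of the called genes all IL-1β libraries were above all ctrl libraries, and in 448 they were all below. Over all genes tested, the groups did not overlap in 7.41% above and in 8.02% below. With the block 4557 genes were called (26%), 1845 higher (10.5%) and 2712 lower (15.5%), among them all 995 of the unblocked fit and none with the opposite sign. A fit of the 6 clone A2 libraries alone called 246, 180 higher and 66 lower. Without the ctrl library of replicate 1 the number was 1890, 758 higher and 1132 lower. Upper quartile scaling gave 573 higher and 800 lower, so the balance of the 2 directions depended on the fit. In both directions most called changes were of less than 1 on the log2 scale.

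**Figure D2:**
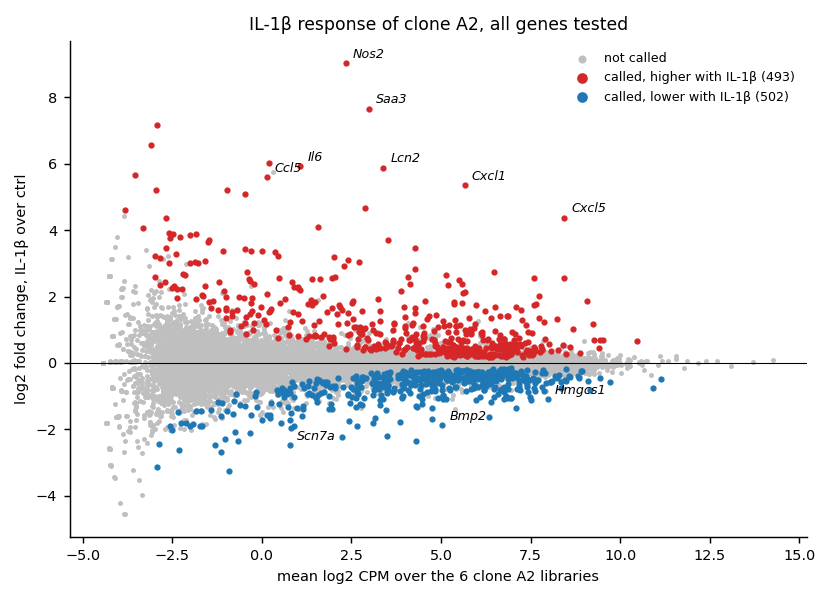
Log2 fold change (IL-1β over ctrl) of each gene tested in clone A2 against its mean log2 CPM over the 6 libraries, with genes called higher in red (493), genes called lower in blue (502) and other genes in gray. Nos2 stands at the top, at 9.02, and the steepest decrease labelled, Scn7a, is at -2.47.

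The steepest rise belonged to Nos2 (chr11:78920787-78960254, plus strand), the inducible nitric oxide synthase. Its level was 0.141, 0.208 and 0.286 CPM in ctrl and 60.8, 113 and 157 CPM after IL-1β, or 0.212 ± 0.0726 against 110 ± 48.3 (mean ± SD, n = 3). The groups were far apart, and the IL-1β library of replicate 1 was the lowest of its group. The log2 fold change was 9.02 (SE 0.60, FDR 1.1e-08). Saa3, an acute-phase serum amyloid A that fibroblasts and macrophages make, was at 0.101, 0.417 and 1.87 CPM in ctrl and at 42.8, 155 and 277 CPM after IL-1β (log2 fold change 7.65, SE 0.78). Here the spread within each group was wide, and replicate 1 was the lowest in both. Lcn2, lipocalin 2, which binds bacterial siderophores, was at 0.947, 1.62 and 1.87 CPM in ctrl and at 33.6, 85.7 and 140 CPM after IL-1β (log2 fold change 5.87, SE 0.55). The same library was again the lowest of the stimulated ones. Taking the 15 largest increases among genes whose mean log2 CPM exceeded 0 and whose groups were separate, the IL-1β library of replicate 1 was lowest in 14 and that of replicate 3 was highest in 15. Over all genes tested, replicate 1 was the lowest of the IL-1β libraries in 47.7% and replicate 3 the highest in 39.8%. Among genes called higher these shares were 63.5% and 64.1%. The part that library quality has in this was not tested. The other genes of the 15 were Mmp12, Il6, Ccl5, Cxcl1, Steap4, Cxcl5, Cxcl2, Igfbp3, Cebpd, Atp8b4, Blnk and the antisense transcript Gm16685, and without both replicate 1 libraries Nos2, Saa3 and Lcn2 were still called.

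**Figure D3:**
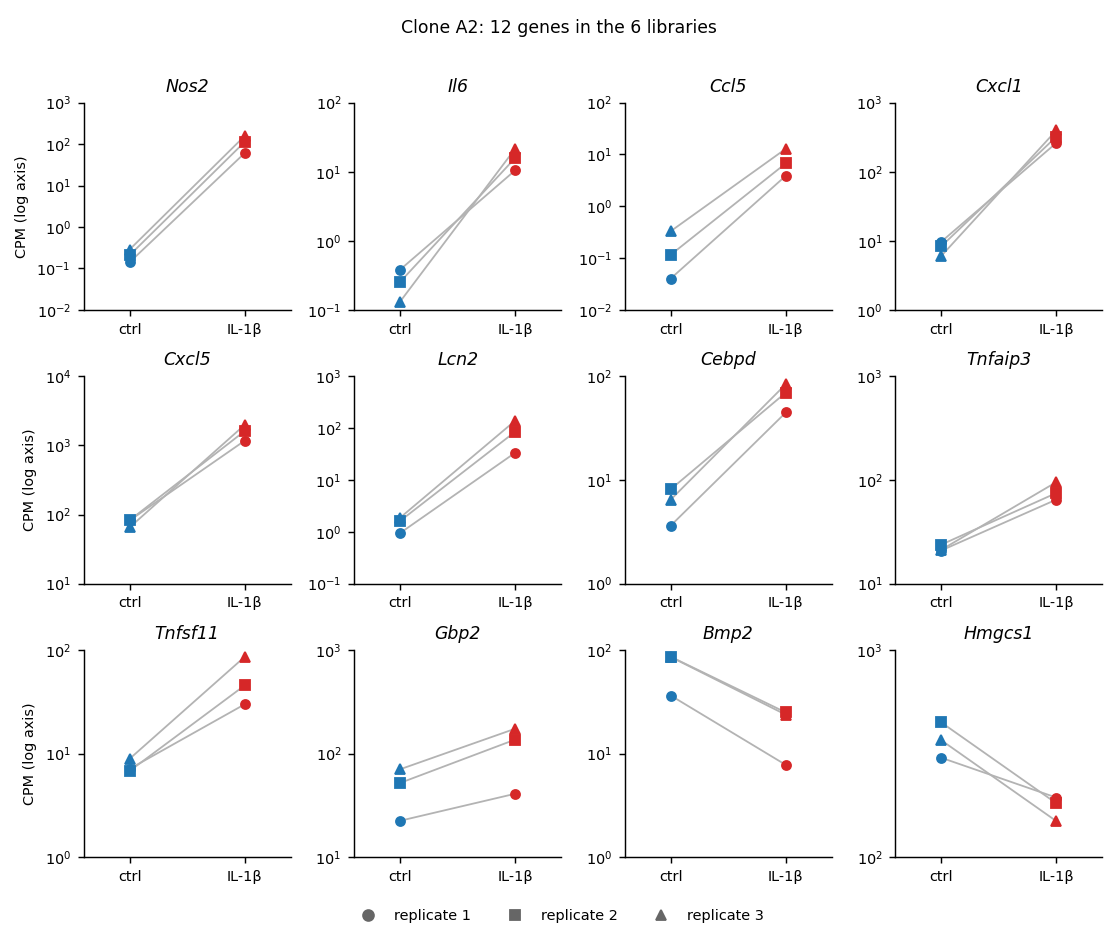
CPM on a log axis of 12 genes in the 6 clone A2 libraries, blue for ctrl and red for IL-1β, with marker shapes for replicates 1 to 3 and gray lines joining the same number. Nos2, Il6, Ccl5, Cxcl1, Cxcl5, Lcn2, Cebpd, Tnfaip3 and Tnfsf11 rise and Bmp2 and Hmgcs1 fall without overlap of the groups, whereas the groups of Gbp2 overlap although each of its 3 pairs rises.

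Chemokines that attract neutrophils were among the genes with the smallest FDR. Cxcl1 was at 9.69, 8.31 and 6.03 CPM in ctrl and at 261, 322 and 397 CPM after IL-1β (log2 fold change 5.35, SE 0.22, FDR 3e-12). Cxcl5 was at 82.0, 82.5 and 65.1 CPM in ctrl and at 1171, 1615 and 1985 CPM after IL-1β (log2 fold change 4.38, SE 0.19, FDR 3e-12). For both, even the lowest IL-1β library was far above the highest ctrl library. Cxcl2 rose from 0.705 to 12.1 CPM on average (log2 fold change 4.10), and Cxcl3, counted in 11 read pairs over the ctrl libraries, was called as well (3.02). These ligands of CXCR2 lie together on chromosome 5, from Cxcl5 at 90759360 to the end of Cxcl2 at 90905938. Cxcl16, a membrane-bound chemokine, rose by 1.53 on the log2 scale, and Cxcl14, a homeostatic chemokine, fell by 0.90 on that scale. Of 11 CXC and related chemokines tested 5 were called higher and 1 lower, against 2.81% and 2.86% of all genes. Their median log2 fold change was 0.99. The block raised the counts to 8 higher and 2 lower, against 10.5% and 15.5% of all genes. With the block Cxcl10 (0.97), Cx3cl1 (0.50) and Ppbp (0.57) were also called higher, whereas Cxcl12, the ligand of CXCR4, had a log2 fold change of -0.09 and groups that overlapped (FDR 0.91, and 0.048 with the block).

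The 250 bases before the annotated starts of Cxcl1, Cxcl2, Il6 and Nfkbia are shown because these genes are induced in clone A2 and known for NF-κB sites close to the start. They come from RefSeq on GRCm38.p6, each 5′ to 3′ on the strand of the gene, and the capitals mark letters that match the κB pattern, GGGA followed by any 4 bases and CC, on either strand. The windows are chr5:90890995-90891244 (plus strand) for Cxcl1, chr5:90903649-90903898 (plus) for Cxcl2, chr5:30012864-30013113 (plus) for Il6 and chr12:55492648-55492897 (minus) for Nfkbia.
Cxcl1: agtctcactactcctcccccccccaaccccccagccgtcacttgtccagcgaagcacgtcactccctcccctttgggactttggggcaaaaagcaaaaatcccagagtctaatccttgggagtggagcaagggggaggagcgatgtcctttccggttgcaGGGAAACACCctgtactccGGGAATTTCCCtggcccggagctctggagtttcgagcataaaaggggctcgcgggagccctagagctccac
Cxcl2: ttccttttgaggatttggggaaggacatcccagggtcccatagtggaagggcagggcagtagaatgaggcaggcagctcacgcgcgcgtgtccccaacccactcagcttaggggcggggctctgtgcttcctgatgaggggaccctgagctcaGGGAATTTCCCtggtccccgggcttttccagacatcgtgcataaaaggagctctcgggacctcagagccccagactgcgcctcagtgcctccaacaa
Il6: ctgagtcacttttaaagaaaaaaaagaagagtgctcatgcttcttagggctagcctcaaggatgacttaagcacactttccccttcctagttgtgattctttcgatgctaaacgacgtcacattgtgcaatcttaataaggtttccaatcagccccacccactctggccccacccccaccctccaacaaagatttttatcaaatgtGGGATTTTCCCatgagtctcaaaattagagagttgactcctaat
Nfkbia: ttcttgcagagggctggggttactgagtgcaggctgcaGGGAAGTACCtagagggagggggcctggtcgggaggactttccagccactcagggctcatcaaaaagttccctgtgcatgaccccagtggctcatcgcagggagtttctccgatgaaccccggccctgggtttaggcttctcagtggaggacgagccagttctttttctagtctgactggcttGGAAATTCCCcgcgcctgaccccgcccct
The letters GGGAATTTCCC stand in both the Cxcl1 and the Cxcl2 window, from -71 to -61 and from -97 to -87, counting back from the base before the start as -1. In the Il6 window the match runs from -44 to -34, and in the Nfkbia window the nearer of the 2 matches runs from -29 to -20. The Il6 window also holds 1 match of the AP-1 pattern TGANTCA, and none of the 4 holds the full CREB pattern TGACGTCA. Shorter forms of the CREB pattern were not searched. The Il6 window holds GACGTCA, which lacks only the first letter, so these windows are not shown to be without a CREB site.

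Windows of 300 bases, from 250 before to 50 after the start, were found for 10887 of the tested genes and for 721 of the called genes. The κB pattern, searched on both strands, was in 26.6% of all 13900 windows, in 30.7% of those of genes called higher and in 30.6% of those of genes called lower. In windows of genes that rose and had a log2 fold change above 1 it was in 33.8%, and in the 27 windows of NF-κB subunits and feedback inhibitors in 59.3%. It was in 8 of the 20 windows of sterol genes (40%), a list that fell. The AP-1 pattern was in 5.6% of all windows, in 7.95% of those called higher, in 14.4% of those with a log2 fold change above 1 and in 7.16% of those called lower. The full CREB pattern was in 2.93% of all windows and in 3.18%, 1.25% and 1.35% of the same sets. These shares are descriptions without a test, and a gene with several starts counts with each of them.

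Of 11 CC chemokines tested 4 rose, against 2.81% of all genes, and 6 with the block, against 10.5%. The median log2 fold change of the list was 1.29. Ccl2, which recruits monocytes, was at 314, 302 and 235 CPM in ctrl and at 952, 1039 and 1100 CPM after IL-1β (log2 fold change 1.86, SE 0.11, FDR 2.9e-10). Its neighbor Ccl7 rose by 1.03 on the log2 scale and Ccl11, the eosinophil attractant eotaxin, by 1.37. Ccl5, which attracts T cells, was at 0.0403, 0.116 and 0.330 CPM in ctrl and at 3.88, 6.73 and 12.9 CPM after IL-1β. Replicate 1 was the lowest and replicate 3 the highest in both groups of Ccl5, and the groups did not overlap (log2 fold change 5.59, SE 0.56). Ccl20 and Ccl28 had no count in the ctrl libraries and at most 1 in each IL-1β library, so that nothing can be said of them.

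In the IL-6 family, Il6 (chr5:30013114-30019981, plus strand) was at 0.383, 0.255 and 0.132 CPM in ctrl and at 10.5, 15.8 and 21.6 CPM after IL-1β. The mean rose from 0.257 ± 0.125 to 16.0 ± 5.56 CPM (SD, n = 3; log2 fold change 5.93, SE 0.32, FDR 1.7e-10). Lif, leukemia inhibitory factor, was at 6.04, 4.84 and 3.81 CPM in ctrl and at 20.4, 15.9 and 19.7 CPM after IL-1β (log2 fold change 1.93, SE 0.16). Among the receptors Il6st, which encodes the shared subunit gp130, rose by 0.70 on the log2 scale, and Il6ra by 0.38. Il11 had a log2 fold change of 0.39 (FDR 0.57) and Clcf1 of 0.01 (FDR 0.99), and in both the groups overlapped. In all, 4 of 13 members rose and none fell, against 2.81% and 2.86% of all genes. With the block 6 rose and 1 fell, against 10.5% and 15.5%. Of the 11 genes that the study names for these libraries 7 were called, but they were chosen on these samples and are not independent evidence.

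Other secreted factors moved in both directions, with 7 of 23 tested called higher and 3 lower, against 2.81% and 2.86% of all genes. With the block 11 were higher and 6 lower, against 10.5% and 15.5%. Tnfsf11, which encodes the osteoclast differentiation factor RANKL, was at 7.13, 6.81 and 8.92 CPM in ctrl and at 29.9, 45.6 and 86.0 CPM after IL-1β (log2 fold change 2.82, SE 0.30). The IL-1β libraries of Tnfsf11 differed among themselves by more than those of Lif, and all were above ctrl. Csf3, the granulocyte colony-stimulating factor, rose from a mean of 0.0806 to 3.26 CPM, with no count in 2 of its ctrl libraries. Csf2, the granulocyte-macrophage factor, had 1 read pair in ctrl and 22 after IL-1β, a ratio of 22.8 with an exact 95% interval of 3.69 to 942 that covers counting error only. Fgf7, a growth factor for epithelia, rose by 1.69 on the log2 scale, the EGF receptor ligand Ereg by 2.14, the death receptor 3 ligand Tnfsf15 by 2.44 and the lymphangiogenic factor Vegfc by 0.65. Vegfa was at 52.6, 42.7 and 54.6 CPM in ctrl and at 74.6, 50.7 and 74.9 CPM after IL-1β, and was called only with the block (log2 fold change 0.42, FDR 0.12, and 1.6e-06 with the block). Bmp2, a bone morphogenetic protein, fell from 36.4, 86.1 and 85.7 CPM to 7.79, 25.0 and 23.8 CPM (log2 fold change -1.88, SE 0.41, FDR 0.006). Each replicate 1 library of Bmp2 was the lowest of its group. Tnfsf10, which encodes the death ligand TRAIL, fell by 2.36 on the log2 scale, and Inhba, the activin A subunit, fell by 0.53 on that scale.

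Of 21 genes of IL-1 receptors and proximal signalling 5 rose and none fell, against 2.81% of all genes called higher, with a median log2 fold change of 0.00. With the block 8 rose and 1 fell, against 10.5% and 15.5% of all genes. Il1rl1, the receptor of IL-33, was at 159, 85.2 and 93.1 CPM in ctrl and at 448, 314 and 385 CPM after IL-1β (log2 fold change 1.77, SE 0.19). Il1rn, the antagonist of the IL-1 receptor, rose by 2.92, Il1rap by 0.48 and the kinase Map3k8 by 0.86, all on the log2 scale. Il1a had no count in ctrl and 19 after IL-1β, so that against a floor of 3 counts per library it was at least 2.26-fold higher. Il1r1 was at 116, 146 and 126 CPM in ctrl and at 134, 172 and 158 CPM after IL-1β and was called only with the block (log2 fold change 0.25, FDR 4.4e-05). The adaptor Myd88 (-0.02), Irak1 (-0.05), Irak4 (-0.12), Traf6 (0.00) and the kinase Map3k7 (-0.07) were not called in either fit.

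Among NF-κB subunits and their feedback inhibitors 14 of 23 rose and none fell, against 2.81% and 2.86% of all genes, and the median log2 fold change was 0.61. With the block 18 rose and 1 fell, against 10.5% and 15.5%. Nfkbia, which encodes IκBα, was at 68.4, 76.0 and 66.7 CPM in ctrl and at 170, 191 and 197 CPM after IL-1β (log2 fold change 1.40, SE 0.11, FDR 5.4e-08). Tnfaip3, which encodes the deubiquitinase A20, was at 20.9, 23.8 and 21.2 CPM in ctrl and at 64.7, 74.8 and 95.4 CPM after IL-1β (1.84, SE 0.13). In both, the spread within a group was small beside the gap between the groups. Nfkbiz, the nuclear IκBζ, rose by 1.70, the A20 partner Tnip3 by 2.20 and the immediate early gene Ier3 by 1.42 on the log2 scale. The subunits Nfkb1 (0.94), Relb (0.61) and Nfkb2 (0.28) rose, whereas Rel had a log2 fold change of -0.10 (FDR 0.66) and Rela of 0.20 (FDR 0.11, and 0.0013 with the block). Of 12 factors of cytokine mRNA decay 3 rose and 1 fell, against 2.81% and 2.86% of all genes. With the block 4 rose and 1 fell, against 10.5% and 15.5%. Zc3h12a, the RNase regnase-1, rose from 7.84, 6.97 and 6.21 CPM to 34.0, 38.2 and 53.5 CPM (log2 fold change 2.58), and Zfp36, tristetraprolin, fell by 0.41 on the log2 scale.

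Of 17 AP-1, C/EBP and immediate early factors 5 rose and none fell (median log2 fold change 0.25), against 2.81% and 2.86% of all genes. With the block 10 rose and 3 fell, against 10.5% and 15.5%. Cebpd, a transcription factor of the acute-phase response, was at 3.63, 8.13 and 6.45 CPM in ctrl and at 44.8, 69.7 and 84.0 CPM after IL-1β (log2 fold change 3.45, SE 0.24, FDR 7.2e-09). Cebpb rose by 1.23 on the log2 scale, and among AP-1 members Fosl1 rose by 0.88, Jun by 0.59 and the related Atf3 by 0.80. Fos had a log2 fold change of -1.19 (FDR 0.094) and was called lower with the block (FDR 1.4e-05). Of 17 JAK-STAT factors and SOCS inhibitors none rose and 2 fell, against 2.81% and 2.86% of all genes. These were Jak3, by 0.49, and Socs5, by 0.27 on the log2 scale. With the block 1 of the list rose and 7 fell, against 10.5% and 15.5% of all genes. Socs3, the feedback inhibitor of gp130 signalling, was at 51.0, 79.5 and 101 CPM in ctrl and at 68.0, 104 and 145 CPM after IL-1β. Its groups overlapped although each pair rose, and it was called with the block alone (log2 fold change 0.45, FDR 0.37, and 3.1e-06 with the block).

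Of 21 acute-phase and complement genes tested 13 rose and none fell, against 2.81% and 2.86% of all genes. With the block, against 10.5% and 15.5% of all genes, 15 of the 21 rose and 3 fell. Their median log2 fold change, 1.73, was the highest of the 21 lists drawn in the plot of gene lists, which leave out cell type markers, the targeted genes and the genes that the study names (median 1.93). Besides Saa3 and Lcn2 these were Hp, which encodes haptoglobin (3.89), Orm2 (1.92), the C1 inhibitor gene Serping1 (2.32), Ptx3 (0.92), the complement component C3, and Saa2. C3 was at 78.0, 117 and 134 CPM in ctrl and at 252, 364 and 478 CPM after IL-1β (log2 fold change 1.73, SE 0.24). The 5 called genes of the Serpina3 family, a cluster of closely related serine protease inhibitors on chromosome 12, rose by 1.50 to 2.36 on the log2 scale. Read pairs that match several copies were not counted, so values of the Serpina3 and Saa genes are uncertain to that extent. Saa2 had 1 read pair in ctrl and 49 after IL-1β, and in Orm2 the groups overlapped. C1s1 (0.75) and C1ra (0.70), proteases of the classical complement pathway, were called higher only with the block.

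Among inducible enzymes and transporters 17 of 27 rose and none fell (median log2 fold change 1.30), against 2.81% and 2.86% of all genes. With the block, against 15.5% of all genes lower and 10.5% higher, 2 fell and 20 rose. Besides Nos2, these included the arginine transporter Slc7a2 (2.73) and Gch1 (1.60), whose product makes a cofactor of nitric oxide synthase, while Ass1 had a log2 fold change of 0.05 (FDR 0.90). The prostaglandin genes Ptgs2 (2.50), Ptges (1.77) and Pla2g4a (0.35) rose, and Ptgs1 had a log2 fold change of -0.14 (FDR 0.69, and 0.015 with the block). Steap4, a metalloreductase, was at 0.544, 1.53 and 3.06 CPM in ctrl and at 20.6, 39.7 and 68.9 CPM after IL-1β (log2 fold change 4.66). Slc11a2, an iron transporter, rose by 1.30, Slc39a14, a zinc and iron transporter, by 0.32, the metallothioneins Mt2 by 1.31 and Mt1 by 0.55, and mitochondrial superoxide dismutase, Sod2, by 2.02, all on the log2 scale. Fth1, the ferritin heavy chain and the most abundant of the genes called higher, was at 1113, 1158 and 1097 CPM in ctrl and at 1530, 1866 and 1951 CPM after IL-1β. Cxcl5 was also among the most abundant of these genes. Ch25h, which makes 25-hydroxycholesterol, rose by 3.10 on the log2 scale, and Cyp7b1, which hydroxylates that product, by 3.37.

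**Figure D4:**
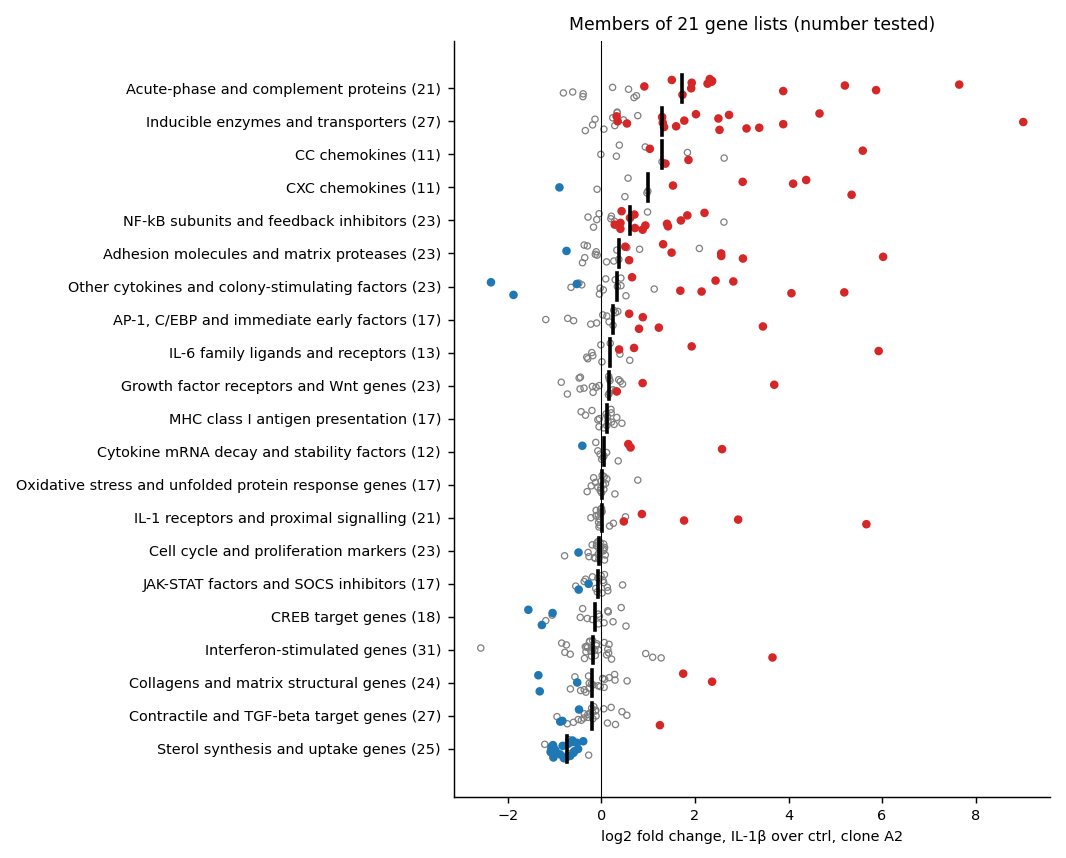
Log2 fold change (IL-1β over ctrl) in clone A2 of every tested member of 21 gene lists, ordered by their medians (black bars), with members called higher in red, called lower in blue and not called as open circles. Acute-phase and complement proteins have the highest median, 1.73, and sterol synthesis and uptake genes the lowest, -0.73, with 21 of 25 called lower.

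Genes of sterol synthesis and uptake fell together. Of 25 tested 21 were called lower, against 2.86% of all genes, and none higher, and the median log2 fold change was -0.73. In all 25 every IL-1β library was below every ctrl library, against 8.02% of all genes. With the block all 25 were called lower, against 15.5% of all genes. Hmgcs1 (chr13:119690379-119708260, plus strand), the first committed enzyme of the mevalonate pathway, was at 302, 447 and 367 CPM in ctrl and at 194, 182 and 149 CPM after IL-1β (log2 fold change -1.09, SE 0.16, FDR 0.00015). Along the pathway, Mvd had a log2 fold change of -1.07, Idi1 of -0.98, Fdft1 of -0.88, Sqle of -0.61, Lss of -1.02 and Cyp51 of -1.03. Insig1, which retains SREBP in the endoplasmic reticulum and is itself a target of it, had -1.07, and the transcription factor gene Srebf2 had -0.39. Members not called without the block included Fdps (-0.71), Tm7sf2 (-0.70) and Ebp (-0.27). Scd2, a fatty acid desaturase outside this list and among the most abundant genes called lower, fell from 2494 to 1490 CPM on average.

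Adhesion molecules and matrix proteases gave 8 higher and 1 lower of 23, against 2.81% and 2.86% of all genes. With the block 12 were higher and 6 lower, against 10.5% and 15.5%. Mmp3, stromelysin 1, was at 134, 113 and 203 CPM in ctrl and at 570, 730 and 1350 CPM after IL-1β (log2 fold change 2.56, SE 0.27). Mmp13, a collagenase, was at 52.6, 64.5 and 174 CPM in ctrl and at 238, 348 and 1132 CPM after IL-1β (2.56, SE 0.49), and replicate 3 was far above the others in both groups. Mmp10 (3.02) and the elastase Mmp12 (6.02) rose with them from the same stretch of chromosome 9, and the gelatinase Mmp9 rose by 1.50 on the log2 scale. Vcam1, a leukocyte adhesion molecule, rose by 1.32, and Plau, the urokinase, fell by 0.75 on the log2 scale. Icam1 was at 0.121, 0.185 and 0.308 CPM in ctrl and at 0.132, 0.297 and 0.367 CPM after IL-1β, with overlapping groups (log2 fold change 0.37, FDR 0.79, and 0.60 with the block).

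Of 24 collagens and matrix genes 2 rose, Dcn, the proteoglycan decorin (2.37), and Tnc, tenascin C (1.75). In the same list Thbs1, thrombospondin 1, fell by 1.35, Col11a1 fell by 1.32 and Col6a3 fell by 0.52 on the log2 scale. Of all genes 2.81% rose and 2.86% fell. With the block 4 of the list rose and 12 fell, against 10.5% and 15.5% of all genes. Of 27 contractile and TGF-β target genes 1 rose and 3 fell, against 2.81% and 2.86% of all genes. With the block 4 rose and 16 fell, against 10.5% and 15.5%. The one that rose was Acta2, smooth muscle α-actin, at 1.65, 2.69 and 1.63 CPM in ctrl and 3.09, 5.42 and 5.63 CPM after IL-1β (log2 fold change 1.25, FDR 0.044), and Cnn1 fell by 0.84 and Ccn2 fell by 0.88 on the log2 scale. Of 23 growth factor receptor, IGF binding protein and Wnt genes 3 rose and none fell, against 2.81% and 2.86% of all genes. With the block 10 rose and 5 fell, against 10.5% and 15.5%. Among the 3 was Igfbp3, which binds IGF1, at 3.71, 2.43 and 3.52 CPM in ctrl and at 36.5, 38.0 and 51.0 CPM after IL-1β (log2 fold change 3.69). Of 23 cell cycle genes the inhibitor Cdkn1b was the only one called, with a log2 fold change of -0.50, against 2.86% of all genes called lower. With the block 7 were lower, against 15.5% of all genes, Ccnd1 (-0.79) and Mki67 (-0.20) among them.

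Under the same conditions, the 15 largest decreases belonged to no single list. Sema3a, a secreted guidance factor, gave the smallest FDR among these 15, 1.2e-09, and was at 39.2, 55.7 and 51.6 CPM in ctrl and at 15.2, 16.4 and 13.6 CPM after IL-1β (log2 fold change -1.70, SE 0.11). Besides Bmp2, the others were the sodium channel gene Scn7a (-2.47), Fam189a2 (-2.35), the choline transporter Slc5a7 (-2.22), the natriuretic peptide clearance receptor Npr3 (-2.20), Rbm11 (-1.96), Megf10 (-1.91), Tox (-1.91), the potassium channel Kcnh2 (-1.81), Mctp1 (-1.80), Trabd2b (-1.78), the intermediate filament gene Synm (-1.74), Lrrc4c (-1.73) and Gm43719 (-1.71). In all 15 the ctrl library of replicate 1 was the lowest of the ctrl group, as it was in 80.7% of genes called lower and in 48.8% of all genes tested. Of the abundant genes, Vim, which encodes vimentin, fell from 2673 ± 209 to 1919 ± 103 CPM (SD, n = 3), and Ahnak fell from 1031 ± 14.9 to 698 ± 97.8 CPM.

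Of 18 CREB target genes none rose and 3 fell, against 2.81% and 2.86% of all genes, and the median log2 fold change was -0.13. With the block 3 rose and 9 fell, against 10.5% and 15.5%. The 3 called lower without the block were the phosphodiesterase Pde4d (-1.04), Bdnf (-1.27) and Ppargc1a (-1.56). Pde4d was at 127, 201 and 220 CPM in ctrl and at 68.2, 94.8 and 103 CPM after IL-1β, and Bdnf, a neurotrophin, at 17.7, 15.5 and 13.0 CPM and at 7.75, 6.05 and 5.26 CPM. Sik1, a kinase that restrains CRTC2, was called higher only with the block (log2 fold change 0.42, FDR 0.085, and 9.2e-06 with the block). Of 17 genes of MHC class I presentation and of 17 genes of oxidative stress and the unfolded protein response none was called by edgeR without the block and with the filter and TMM scaling used here, against 5.68% of all genes, with 2 in each at an unadjusted p under 0.05, and DESeq2 called 1 and 2. Other filters on low counts and upper quartile scaling called 1 to 3 members in the first list and 2 in the second. With the block, 6 rose and 1 fell in the first list, H2-K1 (0.44) among those that rose, and 3 rose and 2 fell in the second, against 10.5% and 15.5% of all genes.

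Of 31 interferon-stimulated genes tested 1 was called higher, against 2.81% of all genes. It was Gbp5, a guanylate-binding GTPase, with 0, 0.116 and 0.242 CPM in ctrl and 0.199, 1.10 and 3.23 CPM after IL-1β. The median of the list was -0.18, and with the block 6 rose and 10 fell, against 10.5% and 15.5% of all genes. Those that rose with the block were led by the guanylate-binding proteins Gbp5, Gbp2 and Gbp3. Gbp2 was at 22.5, 52.2 and 70.7 CPM in ctrl and at 41.1, 137 and 174 CPM after IL-1β, so that the groups overlapped while every pair rose (log2 fold change 1.28, FDR 0.22, and 6.3e-10 with the block). The viral RNA sensors Ddx58 (-0.36) and Ifih1 (-0.67) and the antiviral gene Oasl2 (-0.85) fell with the block. Replicate 1 was the lowest library of both groups in Gbp2, Ddx58, Ifih1 and Oasl2, and what in the libraries accounts for that was not tested.

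The response of clone A2 was then compared with those of the other genotypes by testing the difference of the log2 responses. These comparisons share the clone A2 libraries and are not independent of each other. In the same fit, IL-1β called 348 genes in clone A1 (1.99%; 1.2% higher and 0.788% lower), 831 in Lkb1-/- MEFs (4.74%; 2.65% and 2.09%) and 396 in wild-type MEFs (2.26%; 1.53% and 0.731%), and these counts are not by themselves differences between genotypes. Without the block edgeR called no gene for clone A2 minus clone A1 and none for clone A2 minus Lkb1-/- MEFs, with 489 and 388 genes at an unadjusted p under 0.05, and DESeq2 called 9 and 10. For clone A2 minus wild type 64 genes were called (0.365%), the response being higher in the clone for 31 (0.177%) and lower for 33 (0.188%). With the block the 3 comparisons gave 262 genes (1.5%; 0.742% with the higher and 0.753% with the lower response in clone A2), 183 (1.04%; 0.394% and 0.651%) and 1020 (5.82%; 1.95% and 3.87%).

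Sterol genes responded differently in clone A2 and in wild type. Their median log2 fold change was -0.73 in clone A2, -0.50 in clone A1, -0.81 without LKB1 alone and 0.01 in wild type, with 7 called lower in clone A1 and 22 in Lkb1-/- MEFs. In wild type edgeR called none of them, and 1 had an unadjusted p under 0.05. The difference between clone A2 and wild type was called for 9 of 25 without the block, against 0.365% of all genes. With the block it was called for 22, against 5.82%. Each called difference was a lower response in the clone. Hmgcs1 went from 372 to 175 CPM in clone A2 and from 652 to 699 CPM in wild type (difference of log2 responses -1.19, SE 0.23, FDR 0.021). With the block 3 of the 25 differed from clone A1, against 1.5% of all genes. None differed from Lkb1-/- MEFs by edgeR with the block, where 2 had an unadjusted p under 0.05, or by DESeq2.

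**Figure D5:**
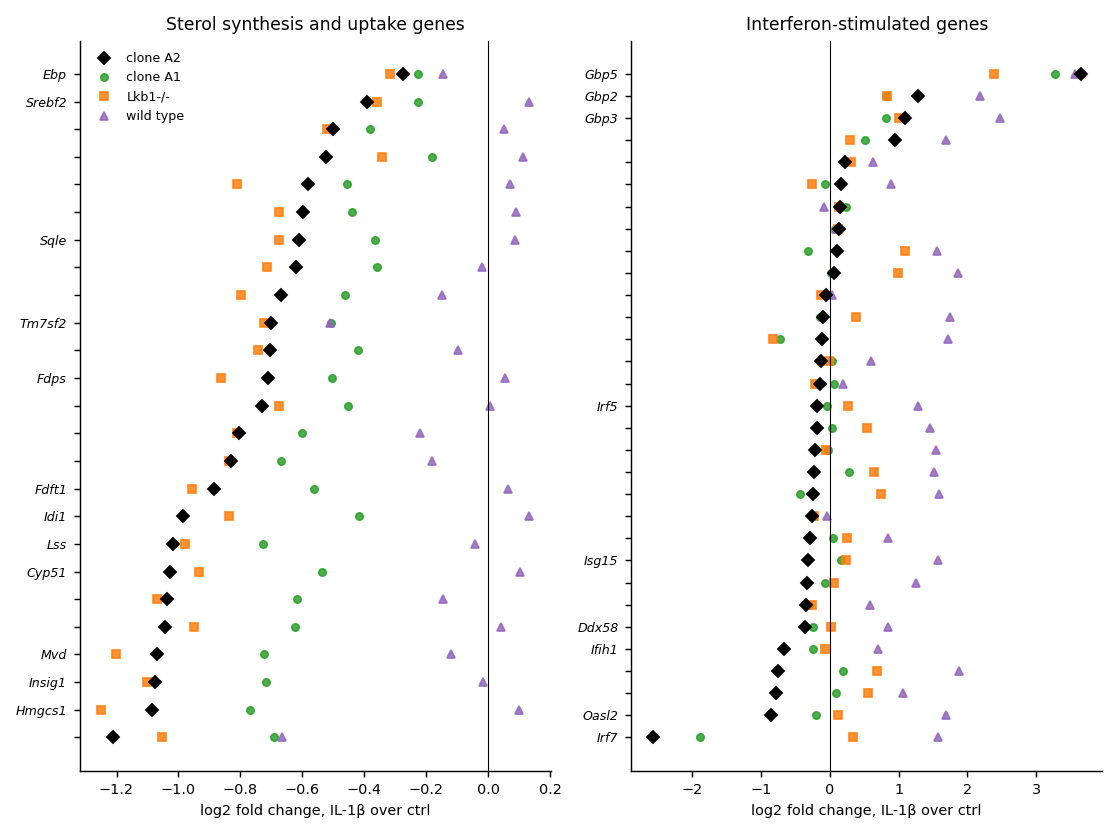
Log2 fold change (IL-1β over ctrl) of the 25 sterol genes (left) and the 31 interferon-stimulated genes (right) in clone A2 (black), clone A1 (green), Lkb1-/- MEFs (orange) and wild-type MEFs (purple), ordered by the value in clone A2, with the genes named in the text labelled. The medians are -0.73 in clone A2 and 0.01 in wild type for sterol genes and -0.18 and 1.45 for interferon-stimulated genes, and Irf7 had 2 read pairs in the clone A2 libraries in all.

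The interferon list differed in the same comparison. Its median was 0.02 in clone A1, 0.25 in Lkb1-/- cells and 1.45 in wild-type cells. With the block the difference between clone A2 and wild type was called for 25 of 31 genes, 24 of them with the lower response in the clone, against 5.82% of all genes. Without the block only Irf5 was called (0.365% of all genes), and for the wild type itself 2 of the 31 passed the unblocked test. Isg15, a ubiquitin-like modifier, went from 3.39 to 2.73 CPM in clone A2 and from 11.3 to 33.5 CPM in wild type (difference of log2 responses -1.91, SE 0.14, FDR 1.3e-08 with the block). The list thus carried a called difference almost entirely in the paired fit. With the block 5 of the list differed from Lkb1-/- MEFs, against 1.04% of all genes. From clone A1 none did by edgeR with the block, where 10 had an unadjusted p under 0.05, or by DESeq2.

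Of the genes called in the unblocked comparison with wild type, those with the largest differences were as follows. Blnk, an adaptor of the B-cell receptor, went from 0.429 to 4.04 CPM in clone A2, with a log2 response 2.59 above that of wild type. The secreted factors Sema3c (1.61) and Gdnf (1.56), the adaptor Afap1l2 (1.61) and Gm43445 (2.11) also had higher responses in the clone. Gm43445 is annotated as a sense transcript within an intron, and its count cannot be told apart from unspliced transcripts of the host gene. Lower responses were found for the small GTPase Rab15 (-2.89), the transporter Slc16a9 (-2.31), Aig1 (-2.22), the chitinase-like gene Chil1 (-2.21) and the water and glycerol channel Aqp3 (-1.88). Slc16a9, Chil1 and Aqp3 rose in the clone as well, whereas Rab15 and Aig1 were at 4.55 to 6.39 and 5.23 to 7.64 CPM over all 6 libraries of the clone, with overlapping groups.

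For some inflammatory genes the difference from another genotype was called, mostly in the fit with the block, and their values are set side by side. Ccl5 had a log2 response of 5.59 in clone A2, 2.44 in clone A1, 1.99 in Lkb1-/- cells and 2.36 in wild-type cells, and with the block it differed from each (FDR 0.00011, 1.5e-05 and 3.9e-05), whereas without the block none of these differences was called. Its ctrl level was 0.162 CPM in clone A2 and 1.32, 1.27 and 0.720 CPM in the others, while its IL-1β level was 7.83 CPM against 7.15, 5.06 and 3.66 CPM. The level in ctrl was thus where clone A2 lay lowest for Ccl5. Lif had log2 responses of 1.93, 1.61, 3.05 and 0.81 in clone A2, clone A1, Lkb1-/- and wild-type MEFs, lower in clone A2 than in Lkb1-/- MEFs with the block (FDR 0.00054) and higher than in wild type in both fits (FDR 0.021 without the block). Tnfsf11 had 2.82 in clone A2 and 1.26 in Lkb1-/- MEFs (FDR 0.00016 with the block), where it rose from 52.2 to 125 CPM, and no count in wild type. Icam1 had 0.37 in clone A2 against 3.36 in Lkb1-/- and 3.84 in wild-type MEFs (FDR 0.023 and 0.0016 with the block). For Tnfsf11 and Icam1 the responses of clone A1 are not given here, so these values do not show a trait of clone A2 alone. Inhba fell in clone A2 and had log2 responses of 0.02, 0.30 and 0.07 in clone A1, Lkb1-/- and wild-type MEFs (FDR 0.00056, 3.3e-06 and 0.024 with the block).

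For other central genes of the response no difference between clone A2 and Lkb1-/- MEFs was called in either fit. Cxcl1 had log2 responses of 5.35 and 5.63, Cxcl5 of 4.38 and 4.67, Il6 of 5.93 and 5.96, Nos2 of 9.02 and 10.81, and Nfkbia of 1.40 and 1.50 in the clone and in Lkb1-/- MEFs. In wild type the log2 responses were 4.99 for Cxcl1, 5.01 for Cxcl5, 4.94 for Il6 and 1.28 for Nfkbia. A missed threshold does not show that these responses are alike, and a response on the log2 scale is not a level. By qPCR the paper reported less Il6 mRNA in double knockout than in Lkb1-/- MEFs, both untreated and with IL-1β. Il6 levels of the 2 genotypes are not compared here.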

How the data were processed

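RNA-seq of 24 mouse MEF libraries was analysed, 3 in each of 8 groups. The deposited files hold counts of read pairs per gene, which the authors made with Trim Galore 0.6.0 and STAR 2.7.8a on GRCm38.p6 with GENCODE M24, counting uniquely mapped pairs. The counts of the second-strand column were used, which held 95.5% to 95.9% of stranded counts in clone A2. The labels and the study's methods name different library kits, so the protocol is not settled here. Pairs on no gene stayed out of totals and tests (26.7% to 34.0% in clone A2).

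Genes with a count of at least 10 in enough libraries and 15 in all (edgeR's filterByExpr by group) were kept, 17522 of 55471. Symbols and positions come from GENCODE M21 on GRCm38 and matched 55144 identifiers. One edgeR 4.0.16 quasi-likelihood model over all 24 libraries (R 4.3.3, TMM scaling, no block) gave log2 fold changes with their standard errors, and FDR is the Benjamini-Hochberg adjusted p, called under 0.05. Values are CPM as mean ± SD. The correlations of same-numbered libraries exceeded 0.1 in every genotype (0.130 to 0.393 outside clone A2), so a fit with a term for each replicate pair of a genotype (the block) is given where it changes a call. Alternatives were DESeq2 1.42.0, other scalings, filters and count columns, fewer groups and left-out libraries. Named genes are members of the gene lists, the 15 largest non-overlapping changes in each direction with a mean log2 CPM above 0, up to 5 response differences in each direction, the 8 smallest FDR and the 3 most abundant called genes in each direction. The members, the lists and the rule were chosen with earlier results of these data known. Intervals and floors cover counting error only. No 2 clone A2 libraries of a group agreed within sampling noise. Results for some members are not reported here.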

Additional observations from a re-analysis of the deposited data

Results flagged for a closer look

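The IL-1β response of clone A2 differed from that of wild-type MEFs in the named genes below, by the edgeR test of the difference between the log2 responses without a block. Responses higher in the clone were those of Blnk (difference 2.59, from 3.21 in the clone and 0.62 in wild type), Gm43445 (2.11, from 1.80 and -0.30), Sema3c (1.61, from 1.85 and 0.24), Afap1l2 (1.61, from 0.93 and -0.68) and Gdnf (1.56, from 1.78 and 0.22). Responses lower in the clone were those of Aqp3 (-1.88, from 0.85 and 2.73), Chil1 (-2.21, from 1.33 and 3.54), Aig1 (-2.22, from -0.09 and 2.13), Slc16a9 (-2.31, from 1.22 and 3.53) and Rab15 (-2.89, from -0.04 and 2.86). Groups of 3 libraries were not tested for a single library far from the others.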

How the results depend on the processing

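Clone A2 gave 995 called genes in the response, 0, 0 and 64 in the differences from clone A1, Lkb1-/- and wild-type MEFs, and 132 called genes in the lists. With an additive replicate block these became 3133, 30, 18, 378 and 215, and with the block within each genotype 4557, 262, 183, 1020 and 274. With only the groups compared they were 246 for the response, 20 for the difference from wild type and 71 in the lists, and with the block added to that fit 3467, 193, 118, 911 and 248. Without a filter on low counts the first 4 were 1643, 147, 68 and 394. DESeq2 gave 9, 10 and 141 for the differences, and upper quartile scaling gave 1 for that from Lkb1-/- MEFs. Without both replicate 1 libraries of clone A2, a choice made after seeing the data, the differences were 2, 1 and 119, and with the block the response gave 4473 genes and the lists 263.

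Leaving out 1 library gave 679 to 1890 genes in the response, 0 to 9, 0 to 1 and 29 to 112 in the differences, and 114 to 150 in the lists. The response rose to 1890 without the ctrl library of replicate 1. The difference from clone A1 was 6 without that library, 9 without the IL-1β library of replicate 1 and 1 without that of replicate 2 of clone A2, and the difference from Lkb1-/- MEFs was 1 without either replicate 1 library of clone A2. The difference from wild type was 112 without clone A2 ctrl replicate 1, 32 without ctrl replicate 2, 38 without either library of replicate 3 and 39 without IL-1β replicate 2, and among wild-type libraries 37 and 36 without ctrl replicates 1 and 2 and 29 without IL-1β replicate 2. The causes of these shifts were not tested beyond the smaller number of libraries. The 163 genes checked were called list members and genes named by the other rules, including some named only for their difference from wild type. Not all of them were called in the response. None reversed its sign in an alternative where either that fit or the main fit called it. The alternatives covered 110 of them with at least 10 counts in every library, 160 with only the groups compared and 159 with DESeq2. In a fit of the clone A2 libraries alone 73 of 160 were no longer called, and 8 to 24 of 163 were lost without 1 library. The share of κB matches in windows of genes called higher was 30.7% over 300 bases and 26.6% over 250, and in all windows 26.6% and 22.7%. At this depth nothing could be said of Ccl20 and Ccl28, which had 0 read pairs in ctrl and at most 1 in each IL-1β library.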
